A study of Mus musculus with 2 samples.

Results

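The cells described here are macrophages that expressed the acute phase gene Saa3 and the complement gene Cfb among cells sorted from mouse lung tumours. They were chosen by their own raw UMI counts (unique molecular identifiers, each taken as 1 captured transcript). A barcode had at least 500 detected genes, at most 10% mitochondrially coded UMIs, at least 5 Lyz2 UMIs, no Csf3r or Cd79a UMI, and at least 3 UMIs over Saa3, Cfb, Slc7a2 and Fstl1 together. This rule found 1142 members among 25454 barcodes kept by the gene and mitochondrial limits, 691 in the LYZKL library and 451 in the WTKL library. Barcodes that met the Lyz2, Csf3r and Cd79a limits are called Lyz2-high. Those of them with a 4-gene sum below 3 are the other Lyz2-high barcodes, 115 in LYZKL and 165 in WTKL.

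Both libraries came from chimeric mice, whose lethally irradiated recipients carried KrasLSL-G12D/+ and Lkb1 fl/fl (KL) and received donor bone marrow. The LYZKL donors were Tmem173 fl/fl;Lyz2-Cre and the WTKL donors Tmem173 fl/fl. Both thus carried floxed alleles of Tmem173, which codes for STING, the adaptor of cytosolic DNA sensing, and the Cre differed. Lyz2-Cre is driven by the Lyz2 locus, which is active in macrophages, monocytes and neutrophils. All recipients received adenoviral Cre (Ad-Cre) through the nose 8 weeks earlier. Tamoxifen is named in the treatment label of WTKL alone. The labels call the sorted cells T cells, CD4 or CD8 positive, and how many mice stand behind a library is not given in the sources used here. A group is 1 library, so nothing between the groups could be tested. Every interval is a 95% interval of the counting error, and the spread from mouse to mouse is unknown.

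Macrophages take up particles, present antigen and secrete cytokines, and their state follows the signals of the tissue. Under bacterial products or inflammatory cytokines, mouse macrophages switch on serum amyloid A3 (Saa3), complement factor B (Cfb), the arginine transporter Slc7a2 and inducible nitric oxide synthase (Nos2), which makes nitric oxide from arginine. Cybb codes for the catalytic subunit of the phagocyte NADPH oxidase, which makes superoxide. Fstl1 codes for a secreted glycoprotein better known from stromal cells.

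The stretches upstream of 4 genes that the results turn on are shown because they carry short motifs of factor families known to act in inflamed macrophages. They run from base -250 to base -31 before the RefSeq start (RefSeq, build GRCm38.p6, 5′ to 3′ on the gene's own strand, the minus strand for all 4), and none overlaps a GENCODE M21 exon on that strand. Capitals mark matches on either strand to a C/EBP-type motif (TTNNGCAA), an interferon-response-type motif (GAAA, any 2 bases, GAAA) or the kappa-B consensus. Saa3 (chr7:46715707-46715926) is in the rule. Cybb (chrX:9469355-9469574) is not in the rule and was found in most members. Its stretch lies before the RefSeq start but inside the longer span of Cybb in GENCODE M21 (chrX:9435252-9487771). C3 (chr17:57228167-57228386), the central complement component, had a log2 ratio of 0.52 for LYZKL over WTKL members, and Cxcl10 (chr5:92348920-92349139), an interferon-induced attractant of T cells, one of -0.71.
Saa3: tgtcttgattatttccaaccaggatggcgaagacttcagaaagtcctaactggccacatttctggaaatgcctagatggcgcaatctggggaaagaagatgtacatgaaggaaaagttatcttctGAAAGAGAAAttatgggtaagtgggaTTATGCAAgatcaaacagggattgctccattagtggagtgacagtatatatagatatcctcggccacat
Cybb: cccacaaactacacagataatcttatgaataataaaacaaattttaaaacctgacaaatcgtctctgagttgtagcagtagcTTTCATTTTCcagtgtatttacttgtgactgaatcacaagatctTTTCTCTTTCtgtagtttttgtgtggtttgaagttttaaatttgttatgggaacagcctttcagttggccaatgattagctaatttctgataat
C3: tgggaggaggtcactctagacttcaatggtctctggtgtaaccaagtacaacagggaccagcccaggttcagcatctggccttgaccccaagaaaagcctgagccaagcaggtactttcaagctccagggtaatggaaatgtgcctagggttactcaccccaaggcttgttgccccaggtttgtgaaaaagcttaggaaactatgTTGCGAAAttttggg
Cxcl10: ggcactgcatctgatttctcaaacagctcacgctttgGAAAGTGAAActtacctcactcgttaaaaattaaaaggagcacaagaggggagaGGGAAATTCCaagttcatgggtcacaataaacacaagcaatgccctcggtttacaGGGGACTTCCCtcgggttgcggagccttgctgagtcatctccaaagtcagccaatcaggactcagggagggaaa
The Saa3 stretch held 1 C/EBP-type match, starting at -99, and 1 interferon-response-type match, starting at -125. The Cybb stretch held 2 interferon-response-type matches, and the C3 stretch 1 C/EBP-type match at -45. The Cxcl10 stretch held 1 interferon-response-type match and 3 kappa-B matches, 2 of them overlapping. Over 32851 promoters of the same table, this window held a C/EBP-type match in 8.78%, an interferon-response-type match in 2.63% and a kappa-B match in 6.34%. A match is a string of letters and describes the window only. The 4 genes were shown because they carry matches, so they are not comparable with these shares. Of 25 genes looked up, 20 had an entry. Among those not shown, Fstl1, Lyz2, Cd38, Trem2, Gpnmb, Mfge8, Ccl17, Ccl8 and Wfdc17 held no match. Ctsl, Ctsk, Cxcl13, Ear2, Slc1a2 and Procr held a C/EBP-type match and Car4 a kappa-B match.

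The markers bore out the name macrophage. All 10 general macrophage markers, among them Adgre1, Cd68, Csf1r and C1qa, reached 5 CPM in both libraries, where CPM is UMIs summed over the members of a library and scaled to 1000000. Their summed level in members was 2963 CPM in LYZKL and 3248 CPM in WTKL, against 168 and 157.4 CPM in T cell barcodes of the same libraries (at least 2 Cd3e UMIs and fewer than 5 of Lyz2). The other Lyz2-high barcodes held 3551 and 3828 CPM. These markers thus set the members apart from T cell barcodes and not from the other Lyz2-high barcodes. Fibroblast markers summed to 0.531 CPM in LYZKL and 0.281 CPM in WTKL members, with Pdgfra and Col1a2 at 0 in both, although Fstl1 is in the rule. Epithelial markers summed to 20.6 and 29.1 CPM and B cell markers to 67.2 and 164 CPM. Neutrophil markers summed to 1683 and 1586 CPM in members and 11735 and 7717 CPM in the other Lyz2-high barcodes, with Csf3r at 0 by the rule. S100a8 among them stood at 12845 CPM over the 21 LYZKL members and 5123 CPM over the 30 WTKL members with a 4-gene sum of 3. How many of these cells carried it was not counted. At a sum of 2, just outside the rule, it stood at 952 and 2350 CPM, and at sums from 4 to 9 at 790 and 751 CPM. NK cell markers summed to 317 and 374 CPM, with Ncr1 and Klra8 at 0 in both.

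T cell RNA was present in many of these barcodes, in libraries sorted for T cells. A Cd3e UMI was found in 326 LYZKL members (47.2%, 43.4 to 51.0%) and in 259 WTKL members (57.4%, 52.7 to 62.04%). The 12 T cell markers, all above 5 CPM, summed to 1437 CPM in LYZKL and 1675 CPM in WTKL members, and to 292 and 374 CPM in members with no Cd3e UMI. Members with a Cd3e UMI were deeper, with medians of 15162.5 and 17416 UMIs in LYZKL and WTKL, than members without one, with 11545 and 12787.5. The highest doublet scores, taken at preset rates of 10.9% of kept LYZKL and 9.76% of kept WTKL barcodes, fell on 107 LYZKL members (15.5%) and 46 WTKL members (10.2%). The WTKL share is thus near its preset rate. The part of shared droplets and of free T cell RNA in the results was not tested. Ratios are therefore also given for the 365 LYZKL and 192 WTKL members with no Cd3e UMI where they moved.

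Macrophage RNA was in turn present in T cell barcodes. After every barcode was thinned to 3000 UMIs, a Saa3 UMI was found in 87.3% of LYZKL and 78.8% of WTKL members, and in 28.2% and 25.6% of T cell barcodes. A 4-gene sum of at least 3 occurred in 9.39% of LYZKL T cell barcodes (8.68 to 10.1%) and in 6.62% of WTKL T cell barcodes (5.99 to 7.29%). Among T cell barcodes within the middle 50% of the members' depth, the shares were 13.3% in LYZKL and 17.1% in WTKL. A sum of at least 30 was reached there by 2.38% and 1.89%. The lower edge of the rule thus admits sums that another cell type also reached, so some results are also given for the 493 LYZKL and 270 WTKL members with a sum of at least 30, a limit chosen after the data were seen.

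The libraries held 93584629 UMIs in 13607 LYZKL barcodes and 77181312 UMIs in 12204 WTKL barcodes, where the labels state 7202 and 6609 cells. The members had medians of 13229 UMIs in LYZKL and 15139 in WTKL, and their sums came to 9419202 and 7117173 UMIs. The libraries shared 100 barcodes. Of LYZKL members, 9 carried a barcode also present in WTKL, 3 WTKL members carried one present in LYZKL, and 0 barcodes were members in both.

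Among the genes of the rule, Saa3 had the widest range of counts and Fstl1 lay in the fewest cells. The lowest, median and highest Saa3 counts were 0, 48 and 4206 UMIs in LYZKL members and 0, 26 and 2731 UMIs in WTKL members. The 10% of cells with most Saa3 held 57.2% in LYZKL and 62.8% in WTKL of its UMIs, so its summed level describes a minority of cells in either library. Cfb was spread more evenly, with medians of 12 and 11 UMIs in LYZKL and WTKL, highest values of 145 and 200, and a top 10% that held 37.8% in LYZKL and 41.7% in WTKL of its UMIs. Slc7a2 had medians of 5 and 3 UMIs and highest values of 128 and 97. Fstl1 had a median of 0 in both libraries and was detected in 266 of 691 LYZKL and 107 of 451 WTKL members, and its top 10% held 67.7% in LYZKL and 85.5% in WTKL, a larger share than for Saa3, so in most members it added nothing to the sum. All 4 genes were detected together in 235 LYZKL members (34.0%) and 89 WTKL members (19.7%), and 1 gene alone in 73 (10.6%) and 70 (15.5%).

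In summed counts, Saa3 stood at 14799 CPM in LYZKL and 10081 CPM in WTKL members, Cfb at 1609 and 1338 CPM, Slc7a2 at 718 and 541 CPM and Fstl1 at 295 and 169 CPM. These levels are a description, since the rule used the genes. The log2 ratios for LYZKL over WTKL were 0.55, 0.27, 0.41 and 0.80, and with a sum of at least 30 those of Saa3 and Cfb were 0.33 and 0.05. In GENCODE M21 on GRCm38, Saa3 lies at chr7:46711998-46715700, Slc7a2 at chr8:40862396-40922308, Fstl1 at chr16:37776873-37836514 and Cfb at chr17:34856374-34862518. The relatives of Saa3 were close to absent: Saa1 had 32 UMIs over all LYZKL and 10 over all WTKL members, and Saa2 had 3 and 0. C2, the neighbour and relative of Cfb, had 14 and 24.

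**Figure D1:**
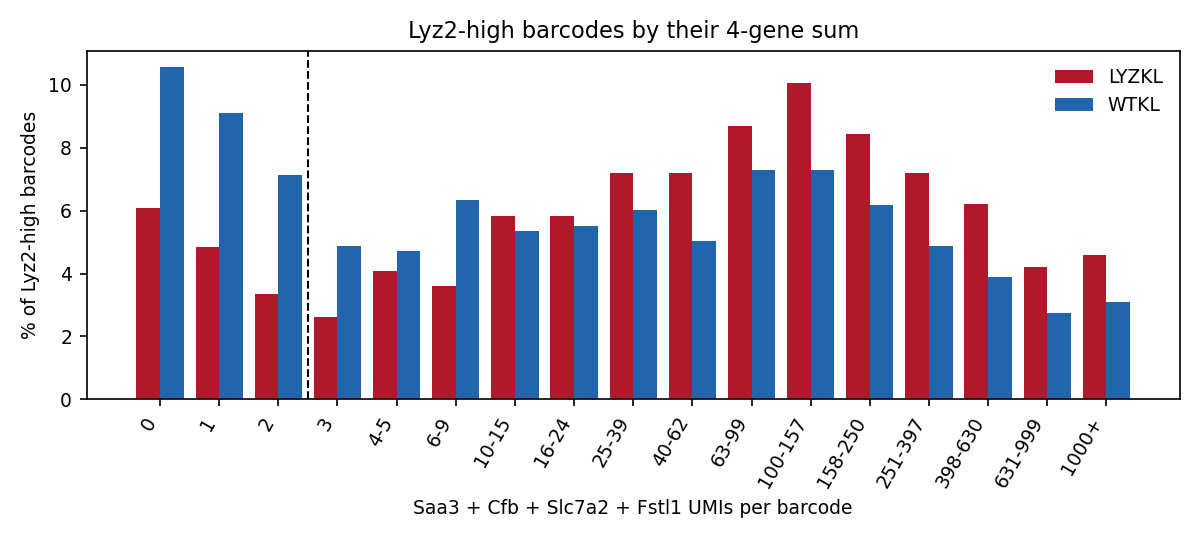
Share of Lyz2-high barcodes (y axis, %) by the summed UMIs of Saa3, Cfb, Slc7a2 and Fstl1 per barcode (x axis, bins that widen to the right), with LYZKL bars left of WTKL bars. The dashed line marks the rule's minimum of 3, and no gap separates members from the other barcodes there: 27 LYZKL and 44 WTKL barcodes had a sum of 2, and 21 and 30 had a sum of 3.

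The members just inside the limit were unlike those far above it in genes that the rule did not use. At a sum of 3 (21 LYZKL and 30 WTKL cells), Nos2 stood at 19.3 and 5.26 CPM in LYZKL and WTKL, next to 35.4 and 26.2 CPM at a sum of 2, just outside. At sums of 300 and more Nos2 stood at 781 and 903 CPM. Cybb stood at 474 and 468 CPM at a sum of 3 and at 2603 and 2278 CPM at 300 and more. Both oxidant-making enzymes were thus far higher in members with much Saa3, Cfb, Slc7a2 and Fstl1. Cd38, which codes for the NAD-consuming ectoenzyme CD38, stood at 62.9 and 49.96 CPM at a sum of 3 and at 228 and 254 CPM at 300 and more, and C3 at 67.7 and 42.1 CPM and 558 and 448 CPM. Vcan, a proteoglycan gene of monocytes, was lower at the high end, with 33.9 and 84.1 CPM at a sum of 3 and 9.30 and 10.4 CPM at 300 and more, and a LYZKL peak of 65.5 CPM at sums from 10 to 29. Median depth moved along with the sum, with 7804 and 13208.5 UMIs at a sum of 3 and 16003 and 17145 at 300 and more, and its part in these levels was not tested.

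**Figure D2:**
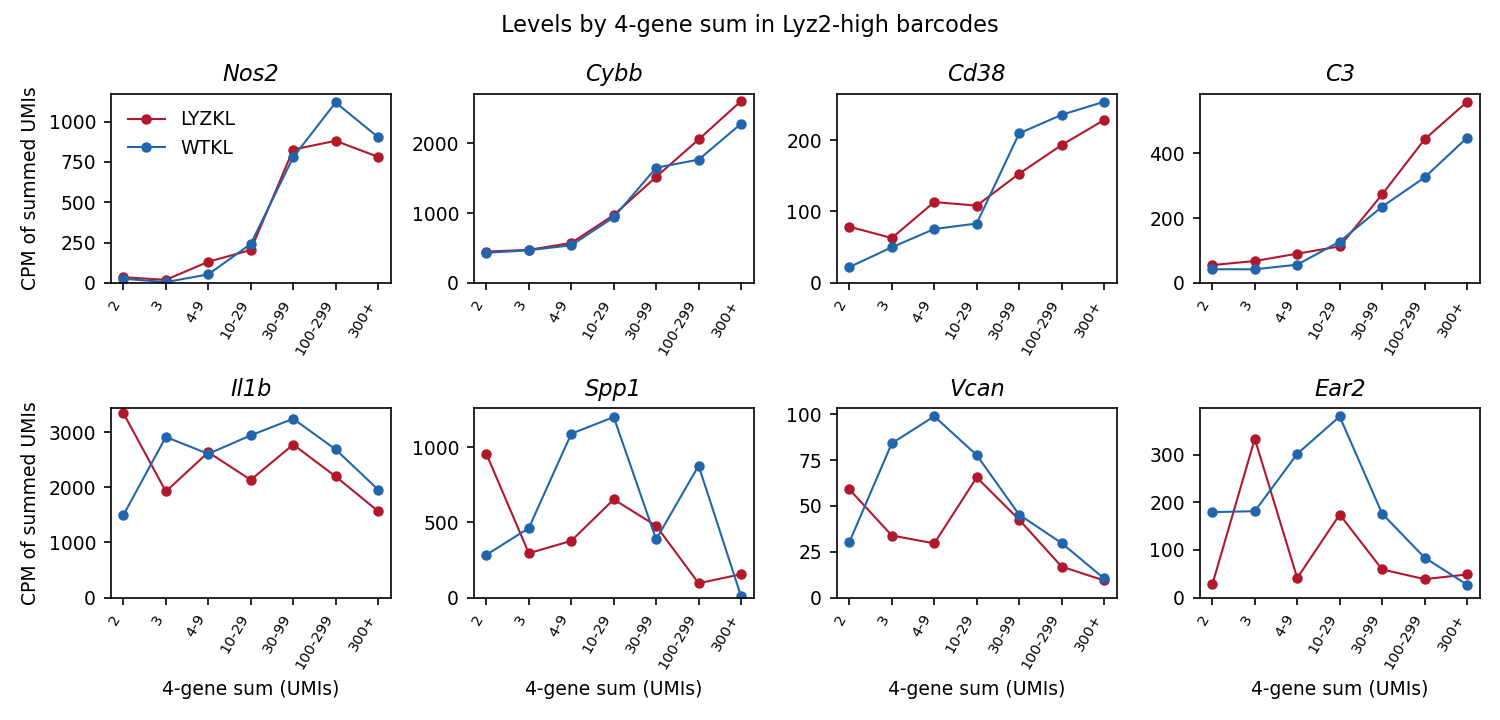
Summed level (y axes, CPM, each panel with its own scale from 0) of genes that the rule did not use, by the 4-gene sum of Lyz2-high barcodes (x axes, UMIs), with LYZKL in red and WTKL in blue. Nos2, Cybb, Cd38 and C3 are higher at sums of 30 and more than at sums of 2 and 3 in both libraries, and Vcan is lowest at 300 and more.

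Across single members the genes moved together to different degrees. On counts scaled by depth, Spearman's rho between Cfb and Slc7a2 was 0.64 over 691 LYZKL members and 0.70 over 451 WTKL members, and between Cfb and Nos2 0.58 and 0.68. Cfb and Cybb gave 0.72 and 0.68. Saa3 was less tied to the rest, with 0.39 and 0.43 to Cfb, 0.23 and 0.33 to Nos2 and 0.19 and 0.24 to Fstl1. Nos2 and Arg1, the arginase gene whose product uses the same substrate, gave 0.01 and 0.13. Cells of a library share its preparation and differ in depth, and the rule selected on Cfb, Saa3, Slc7a2 and Fstl1, so these values describe the members only.

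Some genes outside the rule were also higher in the members than in the other Lyz2-high barcodes, again as a description. Of 5578 genes with at least 20 CPM in LYZKL members, 556 (9.97%) were 1.5-fold or more above the other Lyz2-high barcodes, and in WTKL 494 of 5512 (8.96%). The minimum was set on the members alone and genes lower in members were not counted, so these counts give the higher side only. The 12 leading genes, by the smaller of both libraries' log2 ratios, included Slc1a2, a glutamate transporter, at 59.98 against 1.12 CPM in LYZKL and 66.3 against 2.04 CPM in WTKL. Il12a, a subunit of interleukin 12, stood at 59.1 against 2.24 CPM in LYZKL and 71.7 against 2.04 CPM in WTKL. Clmp, an adhesion molecule gene, stood at 261 against 10.1 CPM and 211 against 6.12 CPM. Members thus carried these genes at levels that other Lyz2-high barcodes barely reached. The other Lyz2-high barcodes held 894436 UMIs in LYZKL and 1469528 in WTKL over all genes. The lowest of their levels thus rest on very few UMIs, and the size of ratios over such levels is uncertain. Procr, the protein C receptor, Anpep, an aminopeptidase, and Pdpn, podoplanin, had log2 ratios over the others of 4.05, 3.45 and 3.27 in LYZKL and of 5.59, 3.33 and 2.96 in WTKL. Acsl1, Nrp2, Sdc1, Pmp22, P2ry14 and Nos2 complete the 12.

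Nos2 and Cybb were detected in far more members than T cell barcodes at equal depth. In barcodes thinned to 3000 UMIs, which left out 21 LYZKL and 7 WTKL members, a Nos2 UMI was found in 48.7% (44.8 to 52.5%) of LYZKL members and 43.2% (38.6 to 48.0%) of WTKL members, against 3.05% and 2.62% of T cell barcodes. Unthinned, the shares in members were 64.3% and 56.5%. A Cybb UMI was found in 86.4% of thinned LYZKL and 85.6% of thinned WTKL members, against 4.82% and 4.59% of T cell barcodes, and unthinned in 91.9% and 94.9% of members. The other Lyz2-high barcodes held a Cybb UMI in 45.8% and 56.8% and a Nos2 UMI in 13.1% and 7.53% after thinning. A Cd38 UMI was found in 38.1% and 32.9% of thinned members, against 7.72% and 8.31% of T cell barcodes.

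Members with a Nos2 UMI (444 in LYZKL, 255 in WTKL) and members without one (247 and 196) differed in other genes within each library. Cfb stood at 2001 CPM with and 626 CPM without a Nos2 UMI in LYZKL, and at 1918 and 365 CPM in WTKL. C3 stood at 423 CPM with and 204 CPM without a Nos2 UMI in LYZKL, and at 334 and 115 CPM in WTKL. Mrc1, the mannose receptor, ran the other way, at 12.5 CPM with and 104 CPM without a Nos2 UMI in LYZKL, and at 12.3 and 154 CPM in WTKL. Spp1, which codes for osteopontin, was also lower with Nos2, at 172 CPM with and 604 CPM without a Nos2 UMI in LYZKL, and at 113 and 1495 CPM in WTKL. The share of members with a Nos2 UMI was 88.5% in LYZKL and 95.3% in WTKL in the deepest bin, at sums of 300 and more, and the part of depth was not tested.

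A small set of members also carried genes of other lung myeloid cells. At least 3 UMIs over Ear2 and Fabp4 together, both in the list of alveolar macrophage markers used here, were found in 56 LYZKL members (8.10%) and 56 WTKL members (12.4%). Most of these UMIs were of Ear2, with 598 in LYZKL and 1171 in WTKL, against 64 and 222 of Fabp4. At least 3 UMIs over Vcan and Ccl17 together, genes of monocytes and dendritic cells, were found in 37 (5.35%) and 52 (11.5%). Barcodes that met such a sum are called barcodes or members with Ear2 and Fabp4, or with Vcan and Ccl17, though either gene alone can reach it. Both sets were a larger share of the WTKL members. Alveolar macrophage markers summed to 110.0 CPM in LYZKL and 329 CPM in WTKL members, and dendritic cell markers to 59.9 and 292 CPM, with Siglech at 0 in both. Ccl17 alone held 45.1 and 259.7 CPM of the dendritic cell sums, and 2 of the 9 markers reached 5 CPM in each library. Of the alveolar sums, Ear2 held 71.3 and 171 CPM and Fabp4 8.28 and 32.2 CPM. These sums thus mostly repeat the genes that defined the sets. Members with Ear2 and Fabp4 had 15277 CPM of Saa3 in LYZKL and 9986 CPM in WTKL, while those with Vcan and Ccl17 had 4571 and 3144 CPM.

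**Figure D3:**
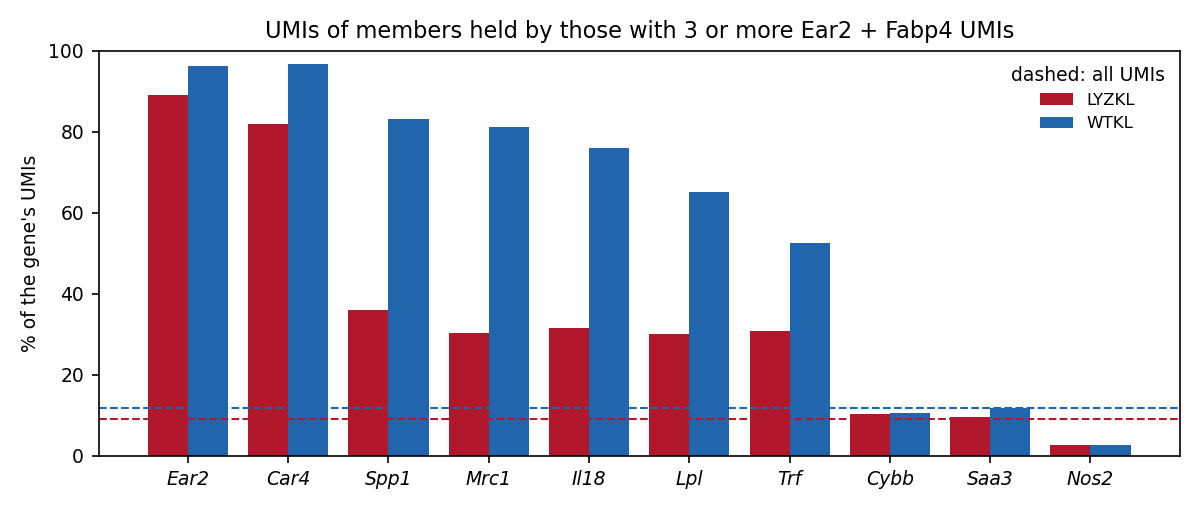
Share of each gene's UMIs (y axis, %) that came from members with at least 3 UMIs over Ear2 and Fabp4 together, LYZKL left of WTKL, with dashed lines for the share of all member UMIs that these cells held (9.15% in LYZKL, 11.8% in WTKL). For Spp1, Mrc1, Il18, Lpl and Trf the shares are 30.1 to 35.9% in LYZKL and 52.5 to 83.2% in WTKL, and for Cybb 10.2% and 10.6%.

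These macrophages were a larger share of the LYZKL than of the WTKL library by more than counting error. They made up 5.14% of kept LYZKL barcodes (4.77 to 5.52%) and 3.76% of kept WTKL barcodes (3.42 to 4.11%), a ratio of 1.37 (1.22 to 1.54). Among Lyz2-high barcodes they made up 85.7% in LYZKL (83.1 to 88.1%) and 73.2% in WTKL (69.5 to 76.7%), a ratio of 1.17 (1.11 to 1.24). With a sum of at least 30 the ratios were 1.63 and 1.40, and with no T cell receptor complex UMI 1.76 and 1.41. The 4-gene sum itself had a median of 90 UMIs in LYZKL and 56 in WTKL members, and the middle 50% ranges, 23 to 259 and 12 to 176, overlap. The sort for CD4 and CD8 can set how many macrophages passed. Barcodes that met the Lyz2 and sum limits but had a Csf3r UMI were left out in both libraries, 333 of 1042 in LYZKL and 275 of 748 in WTKL.

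Tmem173, the floxed gene, stood at 31.8 CPM in LYZKL members (300 UMIs) and 43.4 CPM in WTKL members (309 UMIs), a log2 ratio of -0.45 (-0.68 to -0.21). In members with no Cd3e UMI it stood at 27.8 and 41.4 CPM (log2 ratio -0.57, -0.96 to -0.18), and with a sum of at least 30 the ratio was -0.48. T cell barcodes ran the other way, with 46.7 and 29.2 CPM in LYZKL and WTKL. A Tmem173 UMI was found in 7.61% of thinned LYZKL and 11.0% of thinned WTKL members, and in 12.5% and 7.54% of T cell barcodes. These are 3′ tag libraries, and which exons are floxed is not given in the sources used here, so the tags may lie outside the deleted part and then check nothing.

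Cd38 stood at 174 CPM in LYZKL and 179 CPM in WTKL members (log2 ratio -0.04, -0.15 to 0.06) and Nos2 at 680.0 and 659 CPM (0.05, -0.01 to 0.10), so neither ratio could be told from 1 by its counting interval. Cybb stood at 1806 and 1498 CPM, a log2 ratio of 0.27 (0.24 to 0.31). Lyz2, whose locus drives the Cre, stood at 6154 and 6192 CPM, where the rule set a minimum.

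Most genes differed by less than 1.5-fold between LYZKL and WTKL members. Of 5789 genes that reached 20 CPM in either library and 100 UMIs in total, rule genes left out, 85 (1.47%) were 1.5-fold or more higher in LYZKL and 82 (1.42%) lower. Their median log2 ratio was -0.01. In members with no Cd3e UMI, 126 of 5596 (2.25%) were higher and 194 (3.47%) lower.

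The 12 genes with the highest ratios included secreted products of macrophages. Orm1, which codes for the acute phase protein orosomucoid, stood at 121 CPM in LYZKL and 48.6 CPM in WTKL (log2 ratio 1.32, 1.14 to 1.497) and was detected in 258 and 98 members. Mfge8, which links dying cells to phagocytes, stood at 75.3 and 30.1 CPM (1.32, 1.10 to 1.55), in 167 and 87 members, but 27.1% of its WTKL UMIs came from 1 cell, and with no T cell receptor complex UMI the ratio was -0.011. Wfdc17, a secreted protein of myeloid cells, stood at 4589 and 2635 CPM (0.80, 0.78 to 0.83) and was found in 677 and 439 members, nearly all of them. Bhlhe41, a transcription factor gene, stood at 56.8 and 28.8 CPM (0.98) and Hdac9, which codes for a histone deacetylase, at 58.7 and 31.8 CPM (0.89). Ahnak2, Tmeff1 and Stxbp5 had log2 ratios of 0.96, 0.83 and 0.73. Under all 20 alternatives run, Orm1, Bhlhe41, Ahnak2 and Hdac9 were 1.5-fold or more higher in LYZKL.

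The other 4 of these 12 leaned on few cells or changed in members with no Cd3e UMI. Camp, a granule peptide of neutrophils, stood at 82.0 CPM in LYZKL and 35.3 CPM in WTKL members, and 1 cell held 95.7% of its LYZKL UMIs and 1 cell 90.8% of its WTKL UMIs, and without these cells its log2 ratio was 0.12, against 1.22 with them. Csta2, a cystatin gene, stood at 65.7 and 20.2 CPM (1.70), with 46.4% of its LYZKL UMIs in 1 cell, and without the top cell of each library its log2 ratio was 1.14. Pf4, platelet factor 4, stood at 97.1 and 45.0 CPM (1.11), in 91 and 60 members, with 20.3% and 21.2% of its UMIs in the top cell. Single cells thus carried much of these sums. Csta2 and Pf4 were still 1.5-fold or more higher in LYZKL under all 20 alternatives, 1 of which leaves out the top cell of each library. Il1r2, the decoy receptor of interleukin 1, stood at 63.4 and 37.2 CPM (0.77), and at 39.4 and 49.9 CPM (-0.34) in members with no Cd3e UMI.

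Among the 12 genes with the lowest ratios were genes of monocytes and alveolar macrophages. Plac8 and Ms4a4c, high in monocytes, stood at 363 and 54.1 CPM in LYZKL members, against 858 and 122 CPM in WTKL members (-1.24 and -1.17), and under all 20 alternatives both were 1.5-fold or more lower. Ccr2, the monocyte chemokine receptor and a list member, stood at 97.4 and 167 CPM (-0.78). Not all monocyte genes were lower: Ly6c2 stood at 554 CPM in LYZKL and 555 CPM in WTKL members. The 8 monocyte markers, Ccr2 and Ly6c2 among them, summed to 985 and 1083 CPM. Car4 and Ear2 of alveolar macrophages stood at 5.31 and 71.3 CPM in LYZKL, against 90.9 and 171 CPM in WTKL (-4.10 and -1.26), with 96.8% of the WTKL Car4 UMIs in the members with Ear2 and Fabp4. Spp1 stood at 295 and 629 CPM (-1.09, -1.16 to -1.02), and 83.2% of its WTKL UMIs came from those 56 cells. Without members that had Ear2 and Fabp4 or Vcan and Ccl17, the log2 ratio of Spp1 was 0.70.

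Others of the 12 lowest lay mostly in members with a Cd3e UMI, or in few cells. Gzmb, granzyme B of cytotoxic lymphocytes, stood at 82.1 CPM in LYZKL and 188 CPM in WTKL members (-1.19), while in members with no Cd3e UMI it stood at 39.1 and 25.1 CPM (0.64). Igfbp4, Gramd3 and Bach2 had log2 ratios of -1.42, -1.10 and -1.08 in all members. With no Cd3e UMI, Igfbp4 had -0.95 and Gramd3 -0.52, and with no T cell receptor complex UMI Bach2 had -0.58. Igfbp4 was 1.5-fold or more lower under all 20 alternatives. At least 74.2% of the UMIs of each of these 4 genes lay in members with a Cd3e UMI, which held 53.9% of all member UMIs in LYZKL and 65.3% in WTKL. Ccl17, a dendritic cell chemokine, stood at 45.1 and 259.7 CPM (-2.52), in 18 and 33 members, and under all 20 alternatives, 1 of which filters on Ccl17 itself, it was 1.5-fold or more lower. Ccl8 stood at 23.6 and 96.8 CPM (-2.04), in 28 and 15 members, and with no T cell receptor complex UMI its log2 ratio was 3.57. Cxcl13 stood at 10.2 and 58.0 CPM (-2.51), in 5 and 5 members, so single cells decide it, and its top cells held 30.2% and 49.9% of the UMIs.

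**Figure D4:**
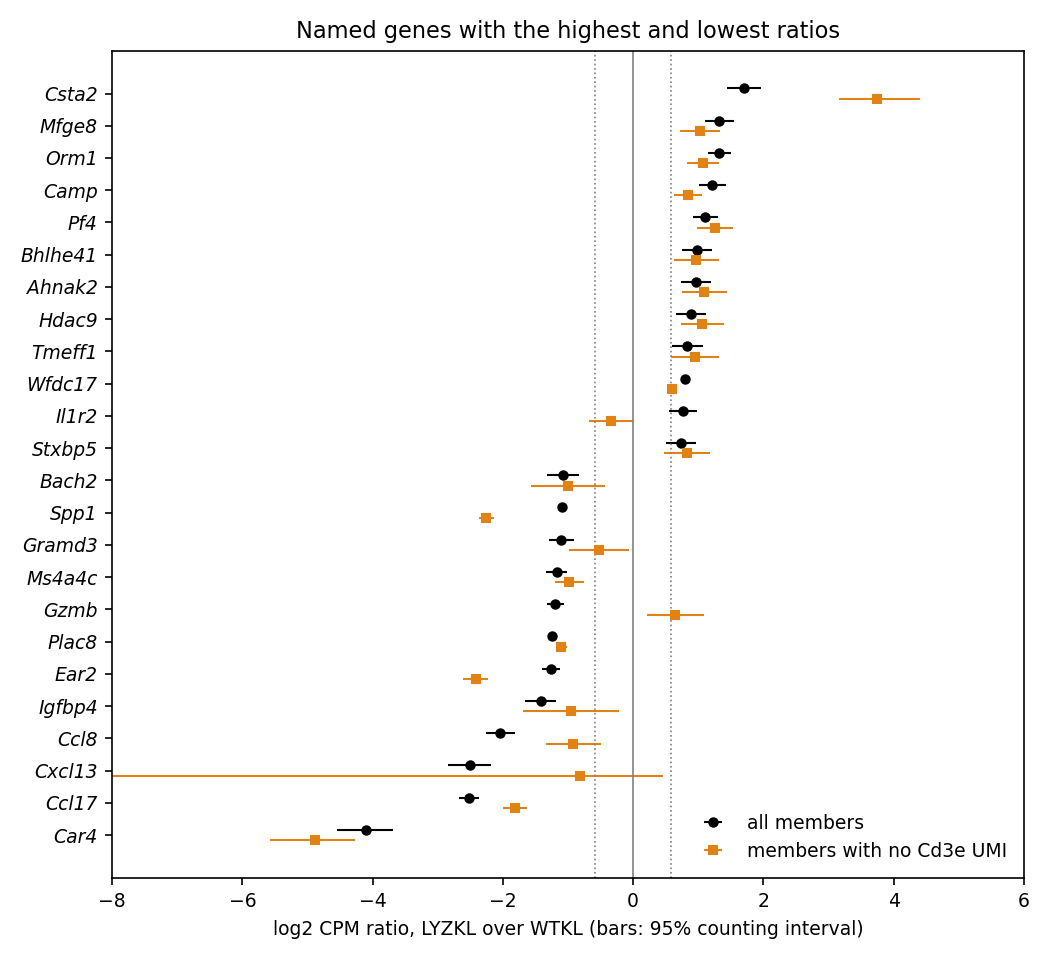
Log2 ratio of CPM for LYZKL over WTKL (x axis) for the 12 highest and 12 lowest genes (y axis), in all members and in members with no Cd3e UMI, with 95% counting intervals as bars and dotted lines at 1.5-fold. Il1r2 (0.77 in all members, -0.34 with no Cd3e UMI) and Gzmb (-1.19 and 0.64) change sign, and the lower bar of Cxcl13 with no Cd3e UMI has no bound and is cut at the axis.

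Genes of arginine use and nitric oxide did not pass 1.5-fold. Of 11 list genes measured (at least 5 CPM in either library, rule genes left out), 7 were higher and 4 lower in LYZKL members, with 0 past 1.5-fold, and the median log2 ratio was 0.03. Over all 9524 genes at this minimum, 49.5% were higher and 50.5% lower by any size, 3.15% were 1.5-fold or more higher and 3.04% lower, and the median was 0.00. Arg1 stood at 178 CPM in LYZKL and 155 CPM in WTKL (0.20), and Ass1, which recycles citrulline towards arginine, at 253 and 277 CPM (-0.13). Gch1 and Pts, of the tetrahydrobiopterin cofactor of nitric oxide synthase, had log2 ratios of -0.30 and 0.35. Of 19 NADPH oxidase and antioxidant genes, 12 were higher and 7 lower in LYZKL members, with 0 past 1.5-fold, and the median log2 ratio was 0.06. Cyba, the membrane partner of Cybb, stood at 2852 and 2096 CPM (0.44, 0.42 to 0.47), and the cytosolic subunits Ncf1 and Ncf4 had log2 ratios of 0.24 and -0.03.

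Acute phase and complement genes held both directions. Of 13 acute phase and iron genes, 8 were higher and 5 lower in LYZKL members, with 2 past 1.5-fold higher and 2 lower, and the median log2 ratio was 0.05. Hp, haptoglobin, which binds free haemoglobin, stood at 831 CPM in LYZKL and 568 CPM in WTKL members (0.55, 0.49 to 0.60), while Trf, the iron carrier transferrin, stood at 35.1 and 71.5 CPM (-1.03). Of 15 complement genes, 7 were higher and 8 lower in LYZKL members, with 0 past 1.5-fold higher and 2 lower, and the median log2 ratio was -0.13. C3 stood at 360.4 and 252 CPM (0.52, 0.43 to 0.60), and at 462 and 333 CPM in members with no Cd3e UMI. The C1q chains C1qa, C1qb and C1qc, which start the classical pathway, had log2 ratios of -0.35, -0.29 and -0.25 in all members and of 0.46, 0.43 and 0.40 in members with no Cd3e UMI, where the list's median was 0.19.

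Chemokine and cytokine genes were more often lower when all members were counted. Of 18 chemokine genes, 6 were higher and 12 lower in LYZKL members, with 1 past 1.5-fold higher and 6 lower, and the median log2 ratio was -0.37. Among members without Cd3e, 11 of 18 were higher and 7 lower, with 3 past 1.5-fold higher and 4 lower and a median of 0.20. Over all 9265 genes at the list minimum in those members, 47.0% were higher and the median was -0.02. The share of all genes past 1.5-fold at this minimum was not counted in those members. Cxcl10 stood at 463 CPM in LYZKL and 756 CPM in WTKL (-0.71, -0.77 to -0.65) and at 456 and 859.6 CPM in members with no Cd3e UMI, and under all 20 alternatives it was 1.5-fold or more lower. Its relative Cxcl9 stood at 417 and 405 CPM (0.04). Ccl2, which draws monocytes, stood at 99.4 and 156 CPM (-0.65), and Ccl5, which T cells also make, at 2207 and 3312 CPM (-0.59). Ccl3, Ccl4 and Cxcl16 had log2 ratios of 0.47, 0.50 and 0.35. The neutrophil attractants Cxcl1 and Cxcl3 had ratios of -0.50 and -0.36 in all members and of 0.71 and 1.76 in those with no Cd3e UMI.

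Of 22 inflammatory cytokine genes, 5 were higher and 17 lower in LYZKL members, with 2 past 1.5-fold higher and 3 lower, and the median log2 ratio was -0.12. Among members without Cd3e, 10 of 21 were higher and 11 lower, with 3 past 1.5-fold higher and 1 lower and a median of -0.01. Il1b stood at 2164 CPM in LYZKL and 2683 CPM in WTKL members (-0.31, -0.34 to -0.28), and its antagonist Il1rn at 124 and 174 CPM (-0.49). Il18 stood at 14.9 and 32.9 CPM (-1.15), and 76.1% of its WTKL UMIs lay in the members with Ear2 and Fabp4. Csf1, the growth factor of macrophages, was higher, at 36.3 and 19.5 CPM (0.89, 0.61 to 1.19), in 187 and 73 members. Tnf stood at 143 and 156.7 CPM (-0.13, -0.25 to -0.01). Of 20 regulators of NF-kB, 12 were higher and 8 lower in LYZKL members, with 0 past 1.5-fold, and the median log2 ratio was 0.06.

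Type I interferon response and STING genes were mostly lower in LYZKL members by small amounts. Of 26 type I interferon response genes, 4 were higher and 22 lower in LYZKL members, with 0 past 1.5-fold higher and 3 lower, and the median log2 ratio was -0.17. Isg15, a ubiquitin-like modifier, stood at 206 CPM in LYZKL and 259 CPM in WTKL (-0.33, -0.42 to -0.24) and Rsad2, an antiviral enzyme, at 102 and 125 CPM (-0.30). Ifit1 and Ifit3, which code for antiviral proteins, stood at 23.04 and 17.4 CPM in LYZKL, against 35.8 and 28.7 CPM in WTKL (-0.64 and -0.72). In members with no Cd3e UMI the list's median was -0.06, with ratios of -0.14 for Isg15 and -0.18 for Rsad2. Of 15 STING and DNA sensing genes, 5 were higher and 10 lower in LYZKL members, with 0 past 1.5-fold higher and 1 lower, and the median log2 ratio was -0.13. Ifi204, a DNA-binding protein of the p200 family, stood at 99.9 and 148 CPM (-0.56), Zbp1, a nucleic acid sensor, at 147 and 173 CPM (-0.23), and Tbk1, the kinase that STING recruits, at 104 and 91.2 CPM (0.18). Of 27 interferon gamma response genes, 12 were higher and 15 lower in LYZKL members, with 0 past 1.5-fold higher and 1 lower, and the median log2 ratio was -0.08.

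Lipid handling, repair and protease genes included some that were higher and some that were lower in LYZKL members. Of 26 lipid handling and repair genes, 16 were higher and 10 lower in LYZKL members, with 3 past 1.5-fold higher and 3 lower, and the median log2 ratio was 0.06. Among members without Cd3e, 10 of 26 were higher and 16 lower, with 2 past 1.5-fold higher and 4 lower and a median of -0.09. Gpnmb, a lysosomal glycoprotein gene, stood at 611 CPM in LYZKL and 395 CPM in WTKL (0.63, 0.56 to 0.69), Trem2, a lipid receptor, at 211 and 137 CPM (0.62, 0.51 to 0.74), and Fabp5, a fatty acid binder, at 1289 and 912 CPM (0.50). Lpl, lipoprotein lipase, and Mrc1 stood at 73.5 and 38.4 CPM in LYZKL, against 146 and 65.3 CPM in WTKL (-0.99 and -0.77), with 65.2% and 81.3% of their WTKL UMIs in the members with Ear2 and Fabp4. Without members that had Ear2 and Fabp4 or Vcan and Ccl17, the ratio of Mrc1 was 1.12. Of 20 protease and matrix genes, 15 were higher and 5 lower in LYZKL members, with 3 past 1.5-fold higher and 1 lower, and the median log2 ratio was 0.09. The cathepsins Ctsk and Ctsl stood at 241 and 623 CPM in LYZKL, against 152 and 399.6 CPM in WTKL (0.67, 0.56 to 0.78, and 0.64, 0.58 to 0.71), and under all 20 alternatives Ctsk was 1.5-fold or more higher. Prg4, which codes for lubricin, stood at 36.8 and 10.5 CPM (1.81), with 49.3% and 46.7% of its UMIs in 1 cell.

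Antigen presentation genes differed little. Of 12 genes of MHC class II presentation, 6 were higher and 6 lower in LYZKL members, with 0 past 1.5-fold, and the median log2 ratio was 0.01. H2-Ab1, a class II chain, stood at 3952 CPM in LYZKL and 4039 CPM in WTKL members, and Cd74, the invariant chain, at 6687 and 6416 CPM. Of 17 genes of MHC class I presentation, 7 were higher and 10 lower in LYZKL members, with 0 past 1.5-fold, and the median log2 ratio was -0.01. Of 17 costimulation and checkpoint ligands, 7 were higher and 10 lower in LYZKL members, with 0 past 1.5-fold, and the median log2 ratio was -0.02. Cd274, which codes for PD-L1, stood at 401 and 394 CPM. Of 19 NAD and nucleotide ectoenzyme genes, 9 were higher and 10 lower in LYZKL members, with 1 past 1.5-fold higher and 0 lower, and the median log2 ratio was -0.01. Nampt, which recycles nicotinamide to NAD, stood at 324 and 326 CPM, and Pnp, a purine phosphorylase, at 241 and 329 CPM (-0.45).

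Of 25 pattern and Fc receptor genes, 8 were higher and 17 lower in LYZKL members, with 0 past 1.5-fold higher and 2 lower, and the median log2 ratio was -0.10. Myd88, the adaptor of Toll-like receptors, stood at 44.5 CPM in LYZKL and 67.9 CPM in WTKL (-0.61) and Fcgr1, the high-affinity receptor for IgG, at 56.5 and 80.7 CPM (-0.51). Of 28 macrophage identity genes, 13 were higher and 15 lower in LYZKL members, with 1 past 1.5-fold higher and 1 lower, and the median log2 ratio was -0.05. Of 24 glycolysis and hypoxia genes, 15 were higher and 9 lower in LYZKL members, with 0 past 1.5-fold, and the median log2 ratio was 0.05. Of 19 immediate early and heat shock genes, 8 were higher and 11 lower in LYZKL members, with 0 past 1.5-fold, and the median log2 ratio was -0.05. The 5 sex-linked genes measured had a median of -0.02.

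Of 25 cell cycle genes, 3 were higher and 22 lower in LYZKL members, with 0 past 1.5-fold higher and 3 lower, and the median log2 ratio was -0.31. In members with no Cd3e UMI the median was -1.16 and with no T cell receptor complex UMI 0.10 over 12 genes, so these filters gave opposite directions. T cell barcodes held more Mki67, a proliferation marker, than members did, with 237 CPM in LYZKL and 163 CPM in WTKL, against 69.4 and 62.8 CPM, and the part of T cell RNA in this list was not tested. Of 23 apoptosis and survival genes, 4 were higher and 19 lower in LYZKL members, with 0 past 1.5-fold, and the median log2 ratio was -0.21. Among members without Cd3e, 9 of 23 were higher and 14 lower, with 1 past 1.5-fold higher and 1 lower and a median of -0.11. Bcl2, which protects cells from apoptosis, stood at 63.6 and 89.9 CPM (-0.50) in all members, and with no T cell receptor complex UMI its log2 ratio was 0.10.

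**Figure D5:**
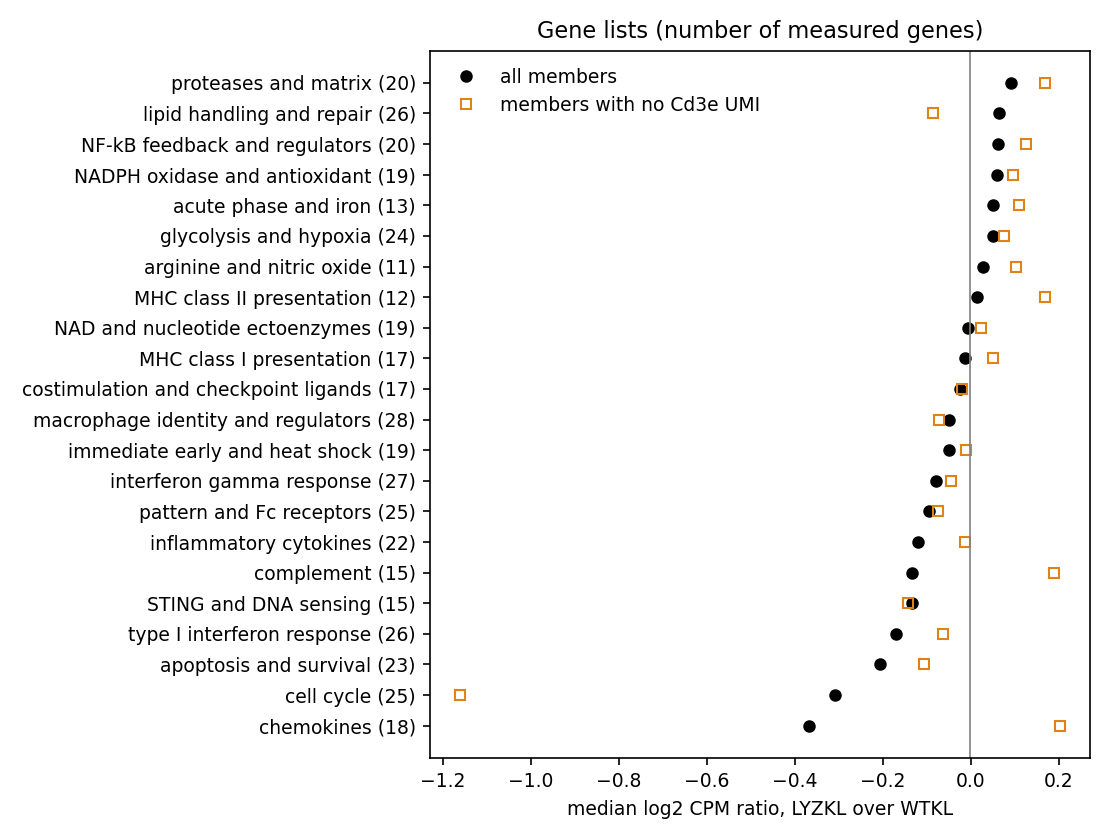
Median log2 CPM ratio for LYZKL over WTKL (x axis) of each gene list (y axis, with the number of genes measured in all members), in all members and in members with no Cd3e UMI, with a line at the median of all genes. The medians in all members run from -0.37 (chemokines) to 0.09 (proteases and matrix), inside 1.5-fold, and in members with no Cd3e UMI those of complement, chemokines, MHC class I presentation, NAD and nucleotide ectoenzymes and lipid handling and repair change sign.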

How the data were processed

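UMIs were counted per gene and barcode by 10x 3′ v3 single-cell RNA sequencing in 1 LYZKL and 1 WTKL library. The deposited matrices hold raw UMI counts, made with Cell Ranger 6.1.2 on mm10, per the submitters' processing notes. The barcodes are 17 bases long. Groups follow the labels. The members, gene lists and markers were chosen with earlier results of these data known.

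Counts of members were summed per library and scaled to CPM (UMIs per 1000000). No prior count was added, except that a library at 0 was set to 3 counts in list medians. Intervals are exact Poisson (levels), Clopper-Pearson (shares), Katz (ratios of shares) and exact conditional binomial (CPM ratios). They cover counting error only, since 1 library per group gives no replicate. Doublets were not removed in the values given. Scrublet within scanpy 1.11.5 served as an alternative, at a preset rate of 0.8% per 1000 barcodes. Other tools were Python 3.11.15, numpy 2.4.6, scipy 1.17.1, pandas 2.3.3, matplotlib 3.10.9, R 4.3.3 and edgeR 4.0.16 (TMM scaling alone). The ratio computation was checked on simulated counts.

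Named genes were the 12 highest and 12 lowest ratios (at least 50 CPM in the higher library, 100 UMIs in total), the 12 leading over other Lyz2-high barcodes, members of 23 gene lists of at least 20 CPM, and 14 genes named in any case. The ranking left out genes of the rule, antigen receptor segments, sex-linked and ribosomal genes, mitochondrially coded genes and gene models without a name. Some genes that this rule selects are left unreported.

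Alternatives were other minimums of genes (200, 1000), mitochondrial limits (5%, 20%), Lyz2 (3, 10) and the 4-gene sum (2, 6), a sum without Fstl1, thinning to 3000 UMIs, members with no Cd3e or no T cell receptor complex UMI, the Scrublet removal, other gene minimums and other scalings. Chosen after seeing the data were a sum of at least 30, members without Ear2 and Fabp4 or Vcan and Ccl17, shared barcodes left out, each gene without its top cell, and the other Lyz2-high barcodes without Vcan and Ccl17.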

Additional observations from a re-analysis of the deposited data

Results flagged for a closer look

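Among the genes named here, rule genes left out, 4 had opposite LYZKL over WTKL ratios in the members and in the other Lyz2-high barcodes. Each passed 1.5-fold and reached 20 CPM in both sets, with a counting interval in the other barcodes that left out 0. Smaller opposite ratios were not flagged, such as Cybb with 0.27 in members and -0.31 (-0.49 to -0.13) in the others. How many of all genes meet these limits was not counted. The difference between members and other barcodes was not tested, with 1 library per group. Spp1, osteopontin, had a log2 ratio of -1.09 in members. The other Lyz2-high barcodes held 402 CPM of it in LYZKL and 191 CPM in WTKL, a log2 ratio of 1.07 (0.84 to 1.30). In members, 83.2% of the WTKL Spp1 UMIs came from the 56 cells with Ear2 and Fabp4. Without members that had Ear2 and Fabp4 or Vcan and Ccl17, the member ratio of Spp1 was 0.70, no longer opposite to the other barcodes. The T cell attractant Cxcl10 had -0.71 in members, against 894 CPM in LYZKL and 370.2 CPM in WTKL, a log2 ratio of 1.27 (1.11 to 1.43). The monocyte attractant Ccl2 had -0.65 in members, against 473 CPM in LYZKL and 192 CPM in WTKL, a log2 ratio of 1.30 (1.08 to 1.52). The cathepsin gene Ctsk had 0.67 in members, against 19.0 CPM in LYZKL and 35.4 CPM in WTKL, a log2 ratio of -0.90 (-1.78 to -0.08), on 17 and 52 UMIs. The other Lyz2-high barcodes number 115 in LYZKL and 165 in WTKL, and few of them carry these ratios: the 10 barcodes with most UMIs of the gene held 95.3% and 75.4% of the Spp1, 70.9% and 80.1% of the Cxcl10 and 74.5% and 70.2% of the Ccl2 UMIs in LYZKL and WTKL, and Ctsk was found in 6 and 13 of them. For Cxcl10, 368 of 800 LYZKL UMIs came from 13 barcodes with Vcan and Ccl17. Without such barcodes, left out after seeing the data, the log2 ratio of Cxcl10 in the other Lyz2-high barcodes was 0.41 (0.22 to 0.60), and those of Spp1, Ccl2 and Ctsk were 1.15, 1.75 and -0.99.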

How the results depend on the processing

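No paired analysis was possible because each group has 1 library, and for the same reason no replicate could be left out. The ratio of shares among kept barcodes was 1.76 with no T cell receptor complex UMI and 1.63 at a sum of at least 30, and the lowest of its alternatives were 1.28 at a Lyz2 minimum of 10, 1.29 at a sum of at least 2 and 1.30 after the Scrublet removal, against 1.37. The ratio among Lyz2-high barcodes was 1.24 at a sum of at least 6, 1.31 in barcodes thinned to 3000 UMIs, 1.41 with no T cell receptor complex UMI and 1.40 at a sum of at least 30, and lowest, at 1.11, with a sum of at least 2, against 1.17. Against 85 genes higher and 82 lower by 1.5-fold, 194 were lower with no Cd3e UMI and 136 with the highest Scrublet scores removed. With no T cell receptor complex UMI 137 were higher and 162 lower, at 5 CPM with no UMI minimum 300 and 290, and at 50 CPM 23 and 40. Genes higher in members than in the other Lyz2-high barcodes numbered 843 in LYZKL with no Cd3e UMI, and 1088 in LYZKL and 938 in WTKL with no T cell receptor complex UMI.

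Of 43 named genes past 1.5-fold, 32 kept their direction under every alternative run and 15 also stayed past 1.5-fold, where Cxcl13 gave no value with no T cell receptor complex UMI. Log2 ratios changed sign with no Cd3e UMI for Il1r2 (-0.34) and Gzmb (0.64). With no T cell receptor complex UMI they did so for Mfge8 (-0.011), Camp (-1.28), Ccl8 (3.57), Ifit1 (0.25) and Ifit3 (0.10), and after thinning for Camp (-0.25). Without members that had Ear2 and Fabp4 or Vcan and Ccl17 they did so for Ear2 (0.47, where the filter used Ear2 itself), Spp1 (0.70), Il18 (0.49) and Mrc1 (1.12). The cause was not tested. No list median passed 1.5-fold as reported, and 16 of 22 changed sign under at least 1 alternative. TMM scaling moved the median of all genes by 0.0101 on the log2 scale. With no T cell receptor complex UMI 180 LYZKL and 66 WTKL members were left, which limits the depth of those values.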

Other observations

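Among the members with at least 3 UMIs over Ear2 and Fabp4 together, several inflammatory genes were higher in LYZKL and others were not. Cfb, a gene of the rule, in these 56 cells of each library stood at 1919 CPM in LYZKL and 695 CPM in WTKL, and C3 at 356 CPM in LYZKL and 176 CPM in WTKL. Also higher in LYZKL were Cxcl9, at 517 CPM against 133 CPM in WTKL, Acod1, at 221 against 89.0 CPM, and Il1b, at 1302 against 971 CPM. Tnf was close, at 56.9 CPM in LYZKL and 62.9 CPM in WTKL. Cxcl2 was lower in LYZKL, at 1705 CPM against 1883 CPM in WTKL. Cxcl10 and Spp1 were lower too, Cxcl10 at 185 CPM in LYZKL and 247 CPM in WTKL and Spp1 at 1159.6 CPM in LYZKL and 4418 CPM in WTKL. Nos2 in the same cells stood at 202 CPM in LYZKL and 149.6 CPM in WTKL, well below the 680.0 and 659 CPM of all members. In members with Vcan and Ccl17, Spp1 stood at 265 CPM in LYZKL and 34.9 CPM in WTKL and Nos2 at 492 CPM in LYZKL and 311 CPM in WTKL. How many mice these cells came from is unknown, and no difference here was tested.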
